A study of Mus musculus with 10 samples.

Results

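Calpains are cysteine proteases that need calcium, and calpastatin is their inhibitor. Calpain 1 and calpain 2, encoded by Capn1 and Capn2, are ubiquitous enzymes that each pair with the small subunit encoded by Capns1, while Cast encodes calpastatin, which binds and blocks these dimers when calcium is high. In the lens, calpains cut crystallins, beaded filament proteins and spectrin, and their excess activity is a known step in calcium-driven rodent cataract. Capn3 encodes calpain 3, known as p94 in skeletal muscle and as the splice form Lp82 in young rodent lens. The remaining genes described here are Capn5, Capn6, whose product lacks the catalytic cysteine, Capn7 and Capn10.

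All probe sets with exactly 1 gene symbol, that symbol being among these 9 genes, were taken from an Affymetrix mouse 430 2 array, which gave 18 of 45101 probe sets. The 9 symbols were selected on signals of these 10 arrays in all 4 groups, which were known when the list was drawn up, and the rule states no threshold on a signal or a difference. The values below therefore describe the family and are no independent evidence about it. A gene was represented by its brightest probe set, by mean log2 signal over the 10 arrays, and genes whose mean fell under the 40th percentile of the array (signal 45.1) were not tested. All 9 genes passed, among 13440 tested genes, as did 16 of the 18 probe sets taken singly.

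RNA came from whole lenses of wild type (WT) or Klf4-conditional null (Klf4CN) mice either from embryos at day 16.5 of gestation (E16.5) or from young adults 56 days after birth (PN56). The E16.5 groups had 3 arrays each, every array carrying lenses pooled from 5 embryos, and the PN56 groups 2 arrays each, with lenses pooled from 3 animals. In published work on this mouse line, floxed Klf4 is removed by Le-Cre, a driver active in the lens and in other derivatives of the surface ectoderm of the eye, but the labels name no Cre and do not say whether the WT animals carried one. Klf4 signal was 739 ± 295 in WT and 1079 ± 278 in Klf4CN-labelled lenses at E16.5 (SD, 3 arrays each). At PN56 it was 185 ± 40.3 and 717 ± 20.9 (SD, 2 arrays each), so it was not lower under the label of the deletion, and whether its probes lie in the deleted part is not stated. Every direction below is that of the lenses so labelled.

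Defining lens markers were bright in every group, with a summed signal of 11 measured markers between 223015 and 287786 on E16.5 arrays and between 535897 and 800051 on PN56 arrays. Median signals of the arrays were 63.0 to 76.9 (E16.5) and 91.0 to 108.6 (PN56), each array having been scaled to a trimmed mean of 500. Centring the arrays on their medians moved the median of all genes for PN56 against E16.5 from -0.04 to -0.56 on the log2 scale in WT and from -0.10 to -0.45 in Klf4CN-labelled lenses, and the share of calls that were rises from 44.9% to 19.9% and from 41.5% to 22.6%. For Klf4CN against WT at PN56 the same centring moved the median of all genes from -0.06 to 0.07 and the share of rises from 46.4% to 71.9%. The poly-A spike dap (3' probe set) averaged 3655 (WT) and 3576 (Klf4CN-labelled) at E16.5 but 12.9 and 6.55 at PN56, so that age cannot be told apart from sample preparation or from the number of animals pooled.

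Capn3 had the largest fall between the ages, and RefSeq lists a pair of start sites for it on chromosome 2 of assembly GRCm38.p6. The 250 bases before each start are printed because the Capn3 probe sets were not assigned to transcripts of either start. The same stretch is printed before Capn2 and Capns1, whose products form a dimer. Capitals mark the letters searched on both strands: the core bound by Kruppel-like factors, read GGGTG on one strand and CACCC on the other; a half-site of Maf factors, read TGCTGA on one strand and TCAGCA on the other; and a TATA box, read TATAAA on one strand and TTTATA on the other. Matches of different motifs that touch run together in capitals.
Capn3, first start, chr2:120463343-120463592, plus strand: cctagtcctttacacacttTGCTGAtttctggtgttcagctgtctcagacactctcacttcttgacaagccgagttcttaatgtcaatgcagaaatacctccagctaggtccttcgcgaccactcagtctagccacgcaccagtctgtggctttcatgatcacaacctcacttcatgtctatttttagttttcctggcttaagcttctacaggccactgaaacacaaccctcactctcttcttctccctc
Capn3, second start, chr2:120476659-120476908, plus strand: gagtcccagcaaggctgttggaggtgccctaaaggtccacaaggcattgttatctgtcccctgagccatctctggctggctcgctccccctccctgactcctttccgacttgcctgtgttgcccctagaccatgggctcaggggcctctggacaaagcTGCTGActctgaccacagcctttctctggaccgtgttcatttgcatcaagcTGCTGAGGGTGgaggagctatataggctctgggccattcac
Capn2, chr1:182517611-182517860, minus strand: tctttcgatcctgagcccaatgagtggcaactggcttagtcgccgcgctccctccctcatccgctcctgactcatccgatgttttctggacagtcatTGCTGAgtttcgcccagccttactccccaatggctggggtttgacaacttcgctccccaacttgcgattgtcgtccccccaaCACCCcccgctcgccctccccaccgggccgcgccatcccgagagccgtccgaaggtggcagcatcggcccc
Capns1, chr7:30195154-30195403, minus strand: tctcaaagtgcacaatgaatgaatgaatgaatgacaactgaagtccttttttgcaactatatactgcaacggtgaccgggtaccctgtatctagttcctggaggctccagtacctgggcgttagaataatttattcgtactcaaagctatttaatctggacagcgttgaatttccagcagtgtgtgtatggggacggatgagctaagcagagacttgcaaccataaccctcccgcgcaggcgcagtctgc

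Before the second Capn3 start lay 2 Maf half-sites and 1 Kruppel-like core, and before the first start 1 Maf half-site. The Capn2 stretch held 1 of each of these, and the Capns1 stretch had no match to the 3 motifs. Of 32851 stretches of this length in the RefSeq table, 52.0% held the Kruppel-like core, 16.1% the Maf half-site and 12.4% the TATA letters. GC content was 46.8% and 57.6% before the Capn3 starts, 62.8% before Capn2 and 46.4% before Capns1, against a median of 52.4% over the table. The table held 13 starts for 8 of the 9 genes, and Capn5 had no entry. A match describes the letters and is not evidence of binding, and no binding was measured here.

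Adult lenses had almost none of the embryonic Capn3 signal. At E16.5 the brighter Capn3 probe set gave 30793, 30261 and 36835 in WT and 31255, 31036 and 29663 in Klf4CN-labelled lenses. At PN56 it gave 95.5 and 56.2 in WT and 95.4 and 97.2 in Klf4CN-labelled lenses. The ages did not overlap in either genotype, and the genotypes overlapped at both ages. In terms of rank, Capn3 sat on average at the 99.8th percentile of all probe sets on E16.5 arrays of both genotypes, and at percentiles 41.6 (WT) and 49.96 (Klf4CN) at PN56, near the middle of the array.

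The ratio of mean E16.5 to mean PN56 signal was 430 in WT and 318 in Klf4CN-labelled lenses for this probe set, and 112 and 245 for the second. The adult signals were not shown to lie above background, so these ratios describe the deposited values and do not fix the size of the fall. On the scale of log2(signal + 16), which understates changes of dim signals, Capn3 fell, with a difference of -8.50 ± 0.16 in WT (SE; limma adjusted p = 9.161e-12) and -8.09 ± 0.16 in Klf4CN-labelled lenses (limma adjusted p = 1.662e-11). Either value was rank 1 among the falls of all 13440 genes. Since the adult signal lay among dim probe sets and no detection call was used, the size depends on the offset, at -8.77 in WT for offset 1 and -7.88 for offset 64, and at -8.30 and -7.58 in Klf4CN-labelled lenses. The age change differed between genotypes by 0.41 ± 0.22 (SE; limma adjusted p = 0.33), which did not pass the test, with a 95% interval from -0.07 to 0.89. In a whole-lens sample, fewer cells that express a gene and less of its RNA per cell cannot be told apart.

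A second Capn3 probe set fell too, by a different amount and with the genotypes in the opposite order. Its E16.5 signals were 17970, 16528 and 20232 in WT and 18160, 16071 and 21954 in Klf4CN-labelled lenses. Adult signals were 193 and 133 in WT and 106 and 46.6 in Klf4CN-labelled lenses, again with no overlap between ages. In a fit of all 34945 probe sets with 1 symbol it fell, at -6.69 ± 0.24 in WT and -7.73 ± 0.24 in Klf4CN-labelled lenses (SE; limma adjusted p = 1.752e-09 and 8.935e-10). Capn3 is also known from skeletal muscle. The 10 muscle markers summed to 363 to 725 in WT and 369.9 to 1164 under the Klf4CN label at E16.5, and to 638 to 662 and 729 to 923 at PN56. Of these, 5 and 4 at E16.5 and 6 and 7 at PN56 lay below the array median on every array of the group. Their part in the Capn3 signal was not tested.

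**Figure D1:**
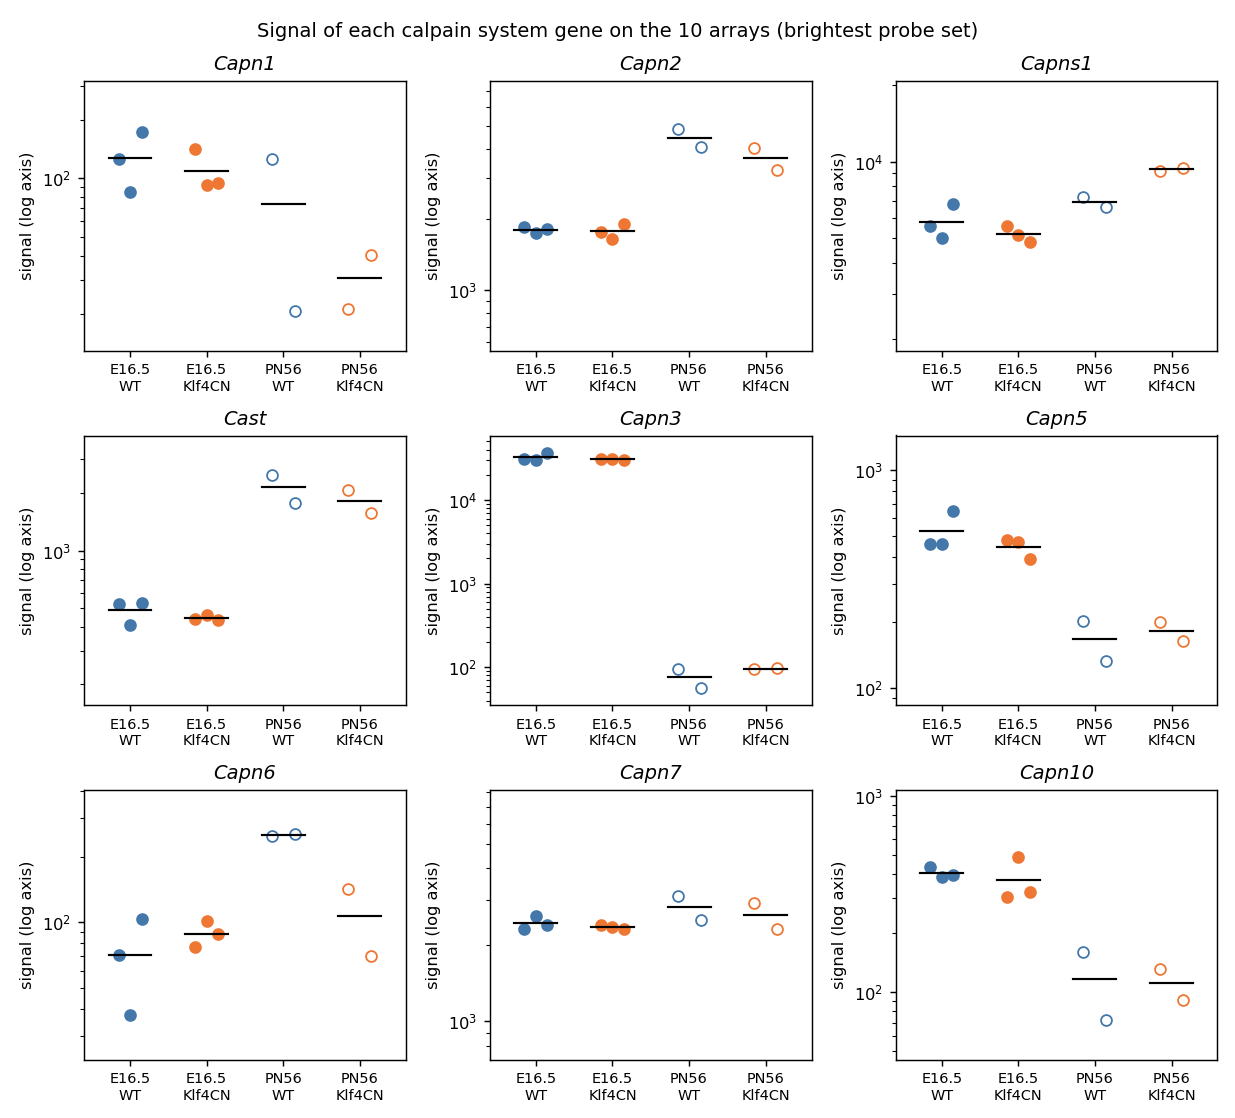
Signal of each of the 9 genes on each array (brightest probe set, logarithmic vertical axis with its own range per panel), with 1 point per array and a bar at the group mean. Filled points are E16.5 (n = 3 per genotype) and open points PN56 (n = 2 per genotype). Capn3 lies between 29663 and 36835 on the 6 E16.5 arrays and between 56.2 and 97.2 on the 4 PN56 arrays.

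Calpastatin moved in the opposite direction. Cast gave 528, 408 and 531 in WT and 438, 461 and 436 in Klf4CN-labelled lenses at E16.5. At PN56 it gave 2490 and 1780 in WT and 2062 and 1576 in Klf4CN-labelled lenses. All 4 adult arrays lay above all 6 embryonic ones. Cast rose 4.36-fold in WT, a log2 difference of 2.08 ± 0.18, and 4.08-fold in Klf4CN-labelled lenses, 1.98 ± 0.18 (SE; limma adjusted p = 1.335e-06 and 2.278e-06). Both other Cast probe sets rose too, by 1.63 and 0.82 in WT and by 1.83 and 1.10 in Klf4CN-labelled lenses. The size therefore varied between probe sets by more than the SE, while the sign did not.

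Among the subunits of the ubiquitous enzymes, Capn2, the catalytic subunit of calpain 2, was the clearest. Its E16.5 signals were 1853, 1759 and 1824 in WT and 1769.8, 1652 and 1909 in Klf4CN-labelled lenses. Adult signals were 4838 and 4073 in WT and 4020.1 and 3242 in Klf4CN-labelled lenses, so that again no adult array overlapped an embryonic one. Capn2 rose 2.46-fold in WT, by 1.29 ± 0.12 on the log2 scale, and 2.04-fold in Klf4CN-labelled lenses, by 1.02 ± 0.12 (SE; limma adjusted p = 2.637e-06 and 2.087e-05). The size depended on the processing, at 0.77 to 1.41 in WT and 0.67 to 1.17 in Klf4CN-labelled lenses over 23 alternatives, all of which kept the call. Capn2 had only 1 probe set, so no other probe set could be set beside it.

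Capns1, the shared small subunit, gave 5571, 4984 and 6807 in WT and 5565, 5152 and 4819 in Klf4CN-labelled lenses at E16.5. At PN56 it gave 7245 and 6649.8 in WT and 9189.7 and 9449.6 in Klf4CN-labelled lenses. WT arrays of the 2 ages overlapped, whereas both adult Klf4CN-labelled arrays lay above every other array. In Klf4CN-labelled lenses Capns1 rose by 0.85 ± 0.12 with age (SE; limma adjusted p = 1.017e-04). In WT the difference was 0.27 ± 0.12 (limma adjusted p = 0.078), not past the test, and past it with quantile normalization (0.30, adjusted p = 0.049) or without E16.5 WT replicate 3 (0.40, adjusted p = 0.010), but -0.24 with each array centred on its median.

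Capn1, the catalytic subunit of calpain 1, was dim. Embryonic signals lay between 84.8 and 173, and adult ones were 126 and 20.7 in WT and 21.2 and 40.2 in Klf4CN-labelled lenses. The PN56 WT arrays lay far apart. The WT difference of -0.94 ± 0.54 (SE; limma adjusted p = 0.154) was -1.92 without PN56 WT replicate 1, past the test (adjusted p = 0.0087), and 0.03 without replicate 2. In either fit the lone adult WT array was assumed to vary like the other groups. In Klf4CN-labelled lenses, whose adult mean of 30.7 lay under the filter signal of 45.1, Capn1 fell, at -1.44 ± 0.54 (limma adjusted p = 0.040), but that call was lost in 11 of 22 alternatives, among them leaving out E16.5 WT replicate 1 (-1.44), any E16.5 Klf4CN array (from -1.53 to -1.26) or either PN56 Klf4CN array (-1.14 and -1.73). Its second, dimmer probe set was at 0.40 in WT and -0.31 in Klf4CN-labelled lenses, neither past the test.

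The other calpains differed among themselves. Capn5, a calpain without the calcium-binding EF-hand domain and known from an inherited retinal inflammation, fell from 523 ± 111 to 167 ± 48.6 in WT (SD, n = 3 and 2; -1.56 ± 0.24, SE; limma adjusted p = 1.349e-04) and from 445 ± 47.7 to 182 ± 25.6 in Klf4CN-labelled lenses (-1.22 ± 0.24; adjusted p = 9.148e-04). Its dimmer probe set had the opposite sign, at 1.36 in WT (limma adjusted p = 0.021) and 0.35 in Klf4CN-labelled lenses, with embryonic signals of 30.4 to 81.4 and adult signals of 79.3 to 175. Capn10, known from genetic studies of type 2 diabetes, fell from 403 ± 26.5 to 117 ± 62.5 in WT and from 371 ± 100.1 to 111 ± 27.8 in Klf4CN-labelled lenses (SD, n = 3 and 2), log2 differences of -1.74 ± 0.31 and -1.59 ± 0.31 (SE; limma adjusted p = 4.939e-04 and 0.0010). A second Capn10 probe set was at 0.88 and 0.80, neither past the test (limma adjusted p = 0.059 and 0.091). With the probe sets of a gene averaged, neither Capn5 (-0.10 and -0.44) nor Capn10 (-0.43 and -0.40) passed in either genotype.

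Capn7, a calpain that binds the ESCRT machinery of membrane sorting, differed little between the ages with 2 of its 3 probe sets. Over the 10 arrays its brightest probe set ran from 2295 to 3123, with age differences of 0.20 ± 0.13 in WT and 0.14 ± 0.13 in Klf4CN-labelled lenses (SE), not past the test, and -0.31 and -0.20 with arrays centred on their medians. A second probe set behaved likewise, at 0.18 and -0.13, but the third rose by 1.34 and 1.13 (limma adjusted p = 1.801e-05 and 7.937e-05), from 576 to 838 on the E16.5 arrays to between 1457 and 1746 on the PN56 arrays. With its probe sets averaged Capn7 passed the test, at 0.57 and 0.38.

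Capn6, known in microtubule stability and in developing muscle, was dim in the embryo, at 70.7, 37.4 and 104 in WT and 76.7, 101 and 88.1 in Klf4CN-labelled lenses. Adult signals were 248 and 253 in WT and 142 and 70.2 in Klf4CN-labelled lenses. Both WT adult arrays therefore lay above all others. Capn6 rose with age in WT, by 1.70 ± 0.40 (SE; limma adjusted p = 0.0031), whereas in Klf4CN-labelled lenses the difference was 0.17 ± 0.40 (adjusted p = 0.74), turning to -0.14 with quantile normalization and -0.18 with median centring. The difference between those age changes, -1.53 ± 0.56, did not pass the test (limma adjusted p = 0.15). A second Capn6 probe set, below the filter on low values, was at 1.02 and 1.10, not past the test.

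Counted over the family, 3 of 9 genes rose (Capn2, Capn6 and Cast) and 3 fell (Capn3, Capn5 and Capn10) from E16.5 to PN56 in WT. Of all 13440 genes 55.7% were called in that comparison, 25% higher and 30.7% lower, so 6 of 9 is near the background. In Klf4CN-labelled lenses 3 rose (Capn2, Capns1 and Cast) and 4 fell (Capn1, Capn3, Capn5 and Capn10), against 52.1% of all genes called, 21.6% higher and 30.5% lower. Groups did not overlap for 6 and 7 of the 9 genes, against 70.4% and 70% of all genes. The median log2 difference of the 9 genes was 0.20 in WT and 0.14 in Klf4CN-labelled lenses, against -0.04 and -0.10 over all genes. With probe sets averaged, 1 gene fell in each genotype, Capn3. Capn2 and Cast stayed called higher in both genotypes, Capn6 in WT and Capns1 in Klf4CN-labelled lenses, and Capn7 was then called higher in both.

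**Figure D2:**
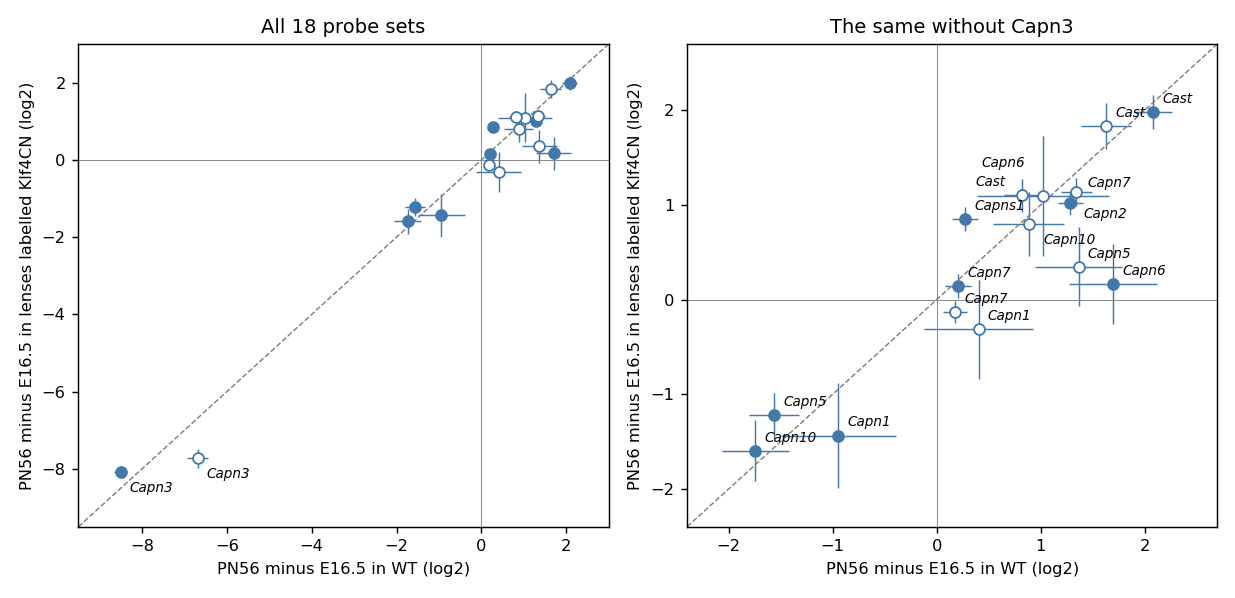
Log2 difference between PN56 and E16.5 for each of the 18 probe sets, in WT (horizontal axis) and in Klf4CN-labelled lenses (vertical axis), with all probe sets on the left and those other than Capn3 enlarged on the right. Filled points are the brightest probe set of a gene, open points its other probe sets, bars are SE and the dashed line marks equal change. Probe sets of Capn5, Capn7 and Capn10 lie far apart from each other. The 3 of Cast also lie apart, but all on the side of a rise.

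Markers of other tissues differed between the ages as well. Summed signals of 8 corneal and surface epithelium markers were 269 to 496 at E16.5 and 5774 to 13657 at PN56, those of 11 photoreceptor markers 330 to 769.7 and 5827 to 18666, and those of 8 endothelial markers 4894 to 7683 and 537 to 769. Mesenchyme markers (9) summed to 4562 to 5732 and 2432 to 3601, and macrophage markers (11) to 7581 to 13066 and 2818 to 5593. Pigment cell markers (9) summed to 1182 to 2608 at E16.5 and 7659 to 9318 at PN56 in WT, and to 2557 to 8774 and 4020.7 to 4147 under the Klf4CN label. Markers of retinal progenitors and neurons (11) summed to 1014 to 9495 and 1655 to 2157 in WT, and to 6053 to 18227 and 1329.8 to 1750.1 under the Klf4CN label. Their part in the age changes of calpain genes was not tested.

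Lenses labelled as Klf4-conditional null were next set against WT at each age. At E16.5 no calpain gene passed the test, and 0 had an unadjusted p under 0.05: differences of the 9 genes lay between -0.21 (Capn5) and 0.34 (Capn6), limma's adjusted p was 0.9998 for each, and all 9 pairs of groups overlapped. Of all genes 0.00744% were called there (1 gene, higher), 0% lower, and 606 had an unadjusted p under 0.05. Groups did not overlap for 11.8% of all genes, so 0 of 9 is near the background. For Capn2 the 95% interval of the difference ran from -0.27 to 0.21, for Capn3 from -0.39 to 0.22 and for Cast from -0.48 to 0.23, so that larger changes at this age lie outside those intervals. For the dim genes Capn1 (-1.22 to 0.88) and Capn6 (-0.43 to 1.12) they were wide. Markers of pigment cells (median 1.84, 0 of 7 tested passing) and of retinal progenitors and neurons (median 1.65, 0 of 11 passing) were on the higher side in the same comparison, with summed signals of 1014 to 9495 in WT and 6053 to 18227 for the retinal list. Their part in the calpain values was not tested.

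At PN56 none of the 9 genes passed limma's test at the adjusted p of 0.05 either, where 13% of all genes were called, 6.04% higher and 6.98% lower. Of the 9, 3 had an unadjusted p under 0.05, against 3838 of all 13440 genes. Groups did not overlap for 3 of the 9, Capn2, Capn6 and Capns1, against 50.8% of all genes. The median difference was -0.11, against -0.06 over all genes. Capns1 came nearest, at 0.42 ± 0.14 (SE; limma adjusted p = 0.059), with signals of 6948 ± 421 in WT and 9319.6 ± 184 in Klf4CN-labelled lenses (SD, n = 2 each). It passed with arrays centred on their medians (0.55, adjusted p = 0.038), without E16.5 WT replicate 2 (adjusted p = 0.045) and without E16.5 WT replicate 3 (0.029), arrays that enter this comparison through the shared spread.

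Its partner Capn2 was at -0.30 ± 0.13 (SE; limma adjusted p = 0.166), with signals of 4455 ± 541 in WT and 3631 ± 550 under the Klf4CN label (SD, n = 2 each). Capn6 was at -1.19 ± 0.44 (adjusted p = 0.095), from 251 ± 3.18 to 106 ± 51.1. Cast was at -0.22 ± 0.20 with its brightest probe set and at 0.08 and 0.34 with the others. Differences of Capn5, Capn7 and Capn10 lay between -0.11 and 0.13, and that of Capn1 was -0.66 ± 0.59. Other probe sets of these genes were lower without passing the test, at -0.84 ± 0.46 for Capn5, -0.38 ± 0.13 and -0.19 ± 0.17 for Capn7, -0.17 ± 0.37 for Capn10 and -1.27 ± 0.57 for Capn1 (SE; limma adjusted p from 0.10 to 0.84). Groups did not overlap for those of Capn1, Capn5 and Capn7, 4 probe sets in all. Nor did they for both other Cast probe sets, which were higher under the Klf4CN label. Over all genes, by the brightest probe set, 50.8% did not overlap in this comparison.

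For Capn3 the probe sets disagreed in the adult lens. The brighter one was at 0.32 ± 0.17 (SE; limma adjusted p = 0.24) and passed without PN56 WT replicate 1 (0.64, adjusted p = 0.021), a fit in which the lone WT array was assumed to vary like the other groups. That omission also brought the difference of the genotype effect between the ages past the test (0.72, adjusted p = 0.047). The second fell in Klf4CN-labelled lenses, at -1.01 ± 0.26 (limma adjusted p = 0.039 over all 34945 probe sets). Both lay at dim signals there, from 46.6 to 193, and their average was at -0.34, not past the test.

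**Figure D3:**
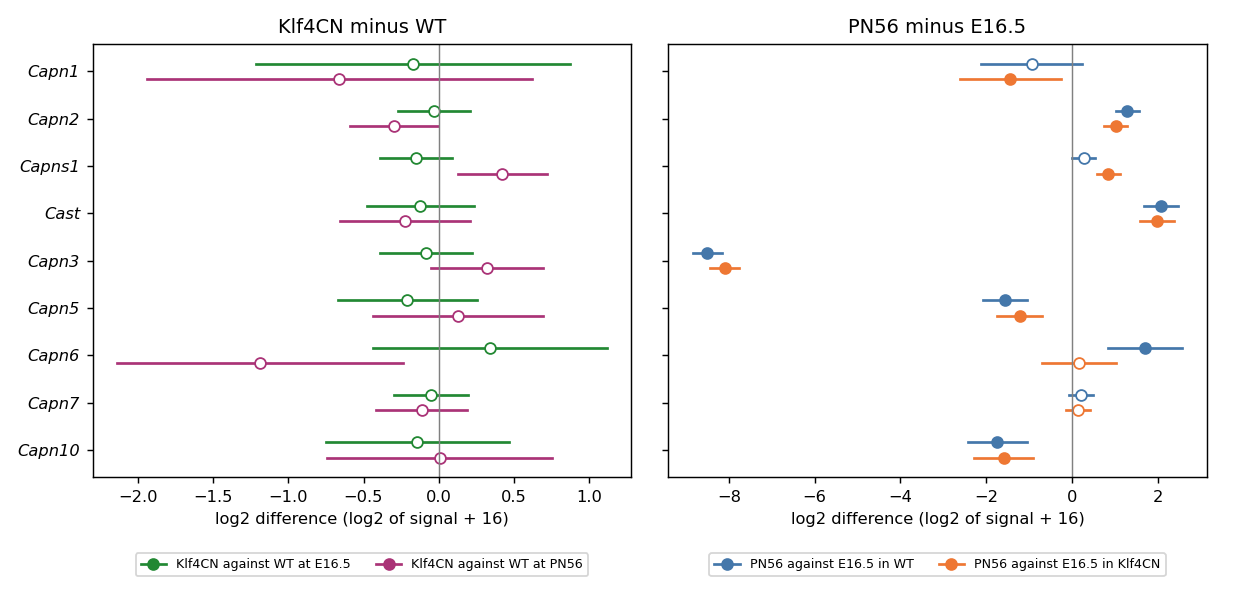
Log2 differences of the 9 genes, Klf4CN minus WT at each age (left) and PN56 minus E16.5 in each genotype (right), from the fit on log2(signal + 16). Points are estimates, bars 95% intervals, and filled points passed the test at an adjusted p under 0.05. No point on the left is filled, and Capn3 stands at -8.50 and -8.09 on the right.

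The difference of the genotype effect between the ages did not pass limma's test for any of the 9 genes either, where 4.75% of all genes were called, 2.66% higher and 2.09% lower. Of the 9, 2 had an unadjusted p under 0.05, against 2730 of all 13440 genes. Values of the 9 genes ran from -1.53 ± 0.56 for Capn6 (SE; limma adjusted p = 0.15) to 0.57 ± 0.17 for Capns1 (adjusted p = 0.086).

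Signals of the subunits can be set against each other within an array, as a ratio whose change between arrays has meaning while its level does not. This ratio was computed after the values had been seen and was not tested. Capns1 over Capn2 was 3.01, 2.83 and 3.73 in WT and 3.14, 3.12 and 2.52 in Klf4CN-labelled lenses at E16.5. At PN56 it was 1.50 and 1.63 in WT and 2.29 and 2.91 in Klf4CN-labelled lenses. Both adult WT arrays had the lowest ratios of the 10, and the adult Klf4CN-labelled arrays lay between them and most embryonic ones. Cast over Capn2, inhibitor over protease, was 0.229 to 0.291 on the 6 E16.5 arrays and 0.437 to 0.515 on the 4 PN56 arrays. The genotypes overlapped at each age. Both ratios used the brightest probe set of each gene. The other Cast probe sets rose with age by 1.63 and 0.82 in WT (log2), against 1.29 for Capn2. In Klf4CN-labelled lenses they rose by 1.83 and 1.10, against 1.02 for Capn2. In WT the direction of this ratio with age therefore depended on the Cast probe set.

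**Figure D4:**
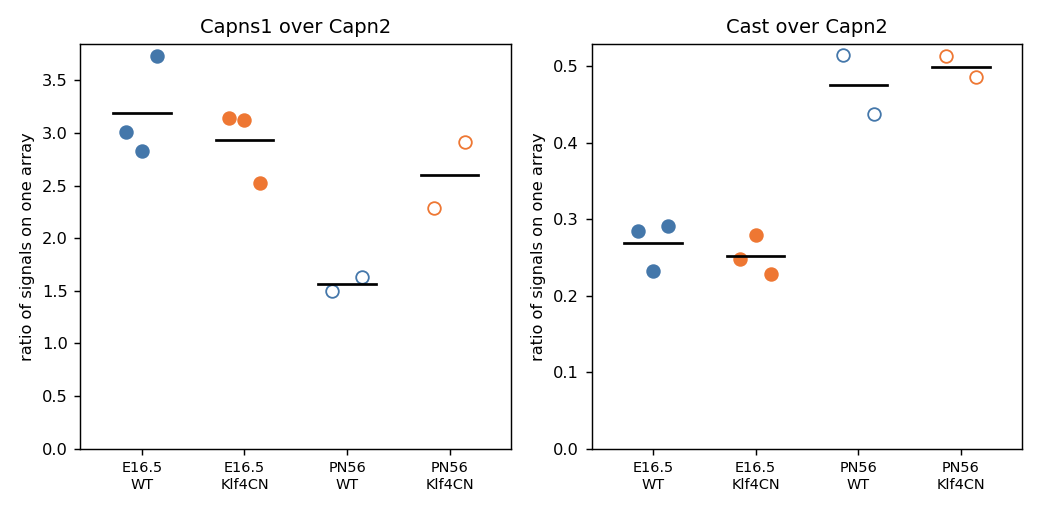
Ratio of Capns1 to Capn2 signal (left) and of Cast to Capn2 signal (right) on each array, with 1 point per array and a bar at the group mean. Each gene is represented by its brightest probe set, and other Cast probe sets rose less with age. Filled points are E16.5 (n = 3 per genotype), open points PN56 (n = 2 per genotype). The Capns1 to Capn2 ratio is 1.50 and 1.63 on adult WT arrays and 2.29 and 2.91 on adult Klf4CN-labelled arrays.

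Other genes of the calpain family were dimmer or moved otherwise. Of 7 listed (Capn8, Capn9, Capn11, Capn12, Capn13, Capn15 and Capns2) 4 were tested. Capn15, a calpain with zinc fingers, gave 612 and 504 in WT and 302 and 219 in Klf4CN-labelled lenses at PN56 and fell, at -1.06 (limma adjusted p = 0.0092). Capn9 was at 0.58, Capn12 at -0.28 and Capn8 at 0.18 in that comparison, not past the test, and none of the 4 passed at E16.5. Over all genes 13% were called at PN56 and 0.00744% at E16.5. From E16.5 to PN56, Capn8 rose in WT, by 0.90 (limma adjusted p = 0.049), and Capn15 fell in Klf4CN-labelled lenses, at -0.87 (limma adjusted p = 0.0033). The Capn15 age change varied between probe sets. A second, dimmer one gave 310, 339 and 383 at E16.5 and 355 and 362 at PN56 in Klf4CN-labelled lenses. In WT it gave 296, 366 and 435, then 534 and 597. The third gave 314, 251 and 269, then 225.5 and 124 in Klf4CN-labelled lenses. In WT it gave 283.5, 318 and 321, then 373 and 300. The fourth was dim, at 27.7 to 101.5. Capn12 was called higher with age in both genotypes, but its signals were 5.6 to 59.8 on the E16.5 arrays and 139.6 to 262 on the PN56 arrays, so that it passed the filter through the adult arrays and had to differ.

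Genes for known lens substrates of calpain were next examined. Of 15 tested, 8 were lower and 0 higher in Klf4CN-labelled lenses at PN56, with a median of -0.45 against -0.06 over all genes, of which 6.98% were called lower and 6.04% higher. None of the 15 passed at E16.5, where 0.00744% of all genes were called. Cryaa (-0.31), Cryba1 (-0.29) and Crybb1 (-0.27) had an unadjusted limma p under 0.05 there (0.015, 0.027 and 0.041). The other genes of the list did not, against 606 of all 13440 genes. Bfsp1, which encodes the beaded filament protein filensin, was at -0.73 (limma adjusted p = 0.0012), Ezr, the membrane linker ezrin, at -0.55 (0.0041), Cryaa, alpha-A crystallin, at -0.60 (0.012) and Bfsp2, phakinin, at -0.46 (0.016). Lens markers, which share members with this list, were lower too (8 of 11 past the test), with summed signals of 711386 to 800051 in WT and 535897 to 547685 in Klf4CN-labelled lenses. Bright control probe sets were lower on the same arrays: the cre spike (3' probe set) averaged 78237 ± 7931 in WT and 52249.8 ± 1397 under the Klf4CN label, and beta-actin (3' probe set) 81662 ± 3544 and 62492 ± 529 (SD, n = 2 each). The part of this in the fall of the bright substrate genes was not tested. With age 11 of the 15 rose and 3 fell in WT, and 11 rose and 2 fell in Klf4CN-labelled lenses, among them Bfsp2 at 4.45 and 4.01 and Bfsp1 at 1.69 and 1.10. Over all genes 25% were called higher and 30.7% lower in WT, and 21.6% and 30.5% in Klf4CN-labelled lenses. The same controls were higher at PN56 too, in WT from 38343 ± 3222 for the cre spike and 36843 ± 1739 for beta-actin at E16.5 (SD, n = 3 each), and their part in these rises was not tested.

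Genes that set cell calcium showed 0 of 12 past the test in either genotype comparison. Of all genes 0.00744% were called at E16.5 and 13% at PN56, so 0 of 12 is near the background. At PN56 the smallest p was that of Atp2b1, a plasma membrane calcium pump, at 0.68 (limma adjusted p = 0.059). It was followed by Slc8a1, the sodium-calcium exchanger, at 1.13 (0.21), Ryr3 at 1.23 (0.25) and Stim1 at -0.33 (0.61). The PN56 WT means of Slc8a1 (40.1) and Ryr3 (6.75) lay under the filter signal of 45.1. With age 3 rose and 5 fell in WT, and 2 rose and 4 fell in Klf4CN-labelled lenses, shares near the 55.7% and 52.1% of all genes called. The WT counts include Itpr3 and Ryr3, whose WT means lay under the filter signal at E16.5 and at PN56, respectively. Those calls are therefore no independent result. Dim Ryr3 was among the falls in WT, from a mean of 68.8 to 6.75. Atp2a2, the calcium pump of the endoplasmic reticulum, fell, at -1.37 and -1.26, and Itpr3, an inositol trisphosphate receptor, had mean signals of 38.3 and 42.3 at E16.5, under the filter signal of 45.1, and 325 and 311 at PN56, so that it entered the test through the adult arrays. Of 4 tested caspases, the other protease family studied in fibre cells, none passed between genotypes, against 0.00744% and 13% of all genes. At PN56 Casp9 was at -0.45, Casp6 at -0.26, Casp8 at -0.09 and Casp2 at -0.04. Casp8 fell with age, at -0.85 in WT and -0.83 in Klf4CN-labelled lenses.

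The genes most like each calpain gene over the 10 arrays were found by Pearson's r of log2 signal, as a description. The 10 arrays share 2 ages, and a gene with any large age change scores high. For Capn3 the nearest were Usp10, Lars and Atp2a2 (r = 0.999, 0.999 and 0.998), for Cast Psmc5, 2510009E07Rik and Cab39l (0.994, 0.993 and 0.992), and for Capn2 Klhl25, Pcolce and Lgmn (0.997, 0.995 and 0.993). For Capns1 they were Itgb1, Sars and Calcoco1 (0.99, 0.989 and 0.987), for Capn5 Tmem186, Ddx41 and Epb41l4a (0.992, 0.989 and 0.988), and for Capn10 Ap1m1, Sdhc and Ctu1 (0.992, 0.991 and 0.991). Dimmer or level genes had looser neighbours, namely Adamtsl5, Sh3gl1 and Ankrd22 for Capn6 (0.961, 0.944 and 0.944), Cyb5rl, D6Ertd474e and Aanat for Capn1 (0.963, 0.953 and 0.944) and Ehd3, Kat8 and 2810414N06Rik for Capn7 (0.96, 0.929 and 0.916).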

How the data were processed

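The authors deposited a linear signal intensity for each probe set on each array. GCOS 1.4 is the software that the submitters' processing notes name, with no further settings. On every array the mean after trimming 2% at each end was 500. Of 45101 probe sets, 64 were controls and left out, 34945 had 1 gene symbol, 932 several and 9160 none, per GEO's platform annotation; 34741 symbols matched RefSeq (GRCm38.p6) by gene number and 0 changed. Signals were tested as log2(signal + 16). All 10 arrays entered 1 limma fit (3.58.1, R 4.3.3) of 4 group means, with eBayes and an intensity trend, two-sided, with Benjamini-Hochberg adjustment over 13440 genes and a call at 0.05. Each single probe set was also fitted, without the filter, over 34945 probe sets. Per the labels, preparations within a group were independent pools of lenses, so p-values measure the spread between pools; whether pools shared litters is not stated. The fit was tested on simulated data. The genes and lists were chosen with earlier results of these data known. Named genes were all 9 members, Klf4, the 3 nearest genes of each member, and up to 4 genes of smallest p per list in Klf4CN against WT at PN56, with further list genes chosen after their values were seen (Itpr3, Atp2a2, and age values of others), as were the cre and beta-actin controls. Within-group correlations of log2 signals across genes were 0.952 to 0.981. Same-numbered replicates were not treated as pairs. Alternatives were other scalings, offsets, filters, probe set rules, variance models, array weights, 2-group fits, each array left out, the replicate number as a block and a threshold of 0.01.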

Additional observations from a re-analysis of the deposited data

How the results depend on the processing

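Of 1016 alternative values for the 45 gene results, 950 kept direction and side of the threshold, 15 lost the call, 11 gained one and 40 turned sign; the cause was not tested. Capn1 and Capn6 had no value with the 60th-percentile filter, since their mean log2 signals fell under it.

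Calls over all genes for Klf4CN against WT at E16.5 (1) were 3 with quantile normalization, 8 with array weights, and 0 with probe sets averaged, no intensity trend, 2-group fits, the replicate block or a threshold of 0.01, and 0 to 3 with an array left out. At PN56 (1750) they were 1034 with probe sets averaged, 1165 with no trend, 637 with weights, 806 with 2-group fits, 674 at 0.01, and 1061 to 1906 with an array left out (1061 without PN56 Klf4CN replicate 2, 1079 without PN56 WT replicate 1). For the difference between ages (638) they were 294 with probe sets averaged, 201 with no trend, 318 with weights, 106 at 0.01, and 277 to 940 with an array left out. Calpain genes higher at PN56 numbered 1 with median centring (Capns1) and 0 to 1 with an array left out, as for the difference between ages; those lower with age numbered 1 in either genotype with probe sets averaged.

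Signs turned with quantile normalization for Capn3 at E16.5 (0.088) and Capn6 with age in Klf4CN (-0.14). Median centring turned Capn7 at PN56 (0.015), in the difference between ages (0.11) and with age (-0.31 in WT, -0.20 in Klf4CN), Cast in the difference (0.071), Capns1 with age in WT (-0.24) and Capn6 with age in Klf4CN (-0.18). Offset 64 turned Capn10 at PN56 (-0.0096). Averaging probe sets turned Capn6 at E16.5 (-0.11), Capn3 (-0.34), Capn5 (-0.36), Capn10 (-0.085) and Cast (0.065) at PN56, and Capn3 (-0.32), Capn5 (-0.34) and Cast (0.13) in the difference.

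With an array left out, ranges that crossed 0 were, at E16.5, Capn1 -0.40 to 0.051, Capn2 -0.082 to 0.021 and Capn3 -0.14 to 0.0055; at PN56, Capn1 -1.64 to 0.32, Capn5 -0.15 to 0.40, Capn7 -0.28 to 0.059, Capn10 -0.49 to 0.51 and Cast -0.46 to 0.018; in the difference, Capn1 -1.47 to 0.49, Capn7 -0.23 to 0.11, Capn10 -0.35 to 0.65 and Cast -0.34 to 0.14; and with age, Capn1 in WT -1.92 to 0.034, and in Klf4CN Capn6 -0.27 to 0.61 and Capn7 -0.029 to 0.31.

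Same-numbered WT and Klf4CN arrays had correlated deviations of 0.27, 0.24 and 0.051 at E16.5, against -0.28 to 0.063 for arrays of different number. WT replicate 3 correlated best with another number, by little (0.063). At PN56 the value was 0.043, but with 2 arrays per group all values there have the same size by construction. The labels state no pairing and the main fit used none. Whether equal numbers mark shared preparation was not tested. With the replicate block, calls over all genes were 1685 at PN56, 543 for the difference, 7140 with age in WT and 6690 in Klf4CN, and of calls for calpain genes Capn1 with age in Klf4CN was lost (-1.37, limma adjusted p = 0.064). The number of arrays limits the precision, most for dim Capn1 and Capn6.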
